A study of Triticum aestivum with 10 samples.

Results

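The leaf of a necrotic line of synthetic hexaploid wheat was compared between 4 °C and 23 °C, transcript by transcript. Members were the array probes whose signal the scanner software flagged as well above background on both arrays at 4 °C, on both at 23 °C, or on all of them, which kept 30076 of the 37826 non-control probes. Synthetic hexaploids combine the genomes of a tetraploid wheat and of Aegilops tauschii, and the line studied here shows cold-induced hybrid necrosis. Plants spent 3 weeks at 23 °C. Necrotic leaves then came either from plants given 12 more weeks in the cold, at 4 °C (2 arrays), or from plants at the end of the 3 weeks with no cold (2 arrays). The other 6 arrays, used for the estimate of the spread and for values set beside the results, came from shoots with their apical meristem of the necrotic and the wild-type line after 6 weeks at 4 °C and from wild-type leaves after 12 weeks at 4 °C. The wild-type line is also a synthetic hexaploid, with the wild-type phenotype. Its leaf at 23 °C was not analysed here, so the temperature comparison exists in the necrotic line alone. Cold, plant age, slide and scan change together between the groups and cannot be told apart. The series describes 2 independent experiments, but no label says that replicates were separate plants, so p-values may reflect technical spread only.

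Cereals kept for weeks at low temperature above freezing acclimate. Transcription factors of the CBF/DREB family switch on COR and LEA genes, whose products protect chloroplasts, membranes and proteins, while genes of growth and photosynthesis are adjusted. Hybrid necrosis, known in many plants, is tissue death that resembles an immune response and arises from parental alleles that do not work together.

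At 4 °C 30238 and 29918 probes were well above background, against 28880 and 28487 at 23 °C, and no spot was saturated. The 75th percentile of the processed signal was 1613 and 1539 at 4 °C and 789 and 808 at 23 °C. Levels are given as log2 signal relative to that percentile. Across member probes, which are not independent, replicates correlated at r = 0.996 at 4 °C and r = 0.997 at 23 °C. Their median absolute difference was 0.063 at 4 °C and 0.064 at 23 °C on the log2 scale. Per the file headers, the arrays at 4 °C were positions 3 and 4 of slide 3 and those at 23 °C positions 1 and 2 of slide 1. The tissue label could not be checked against leaf markers, since no probe name matched one.

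Most members differed between the temperatures, usually by less than 2-fold. Of 30025 tested members, 10273 were higher at 4 °C (34.2%) and 13577 lower (45.2%) at an adjusted p under 0.05 in limma. When a change of 2-fold was also required, 3923 were higher (13.1%) and 5129 lower (17.1%). The interquartile range of all log2 differences (4 °C minus 23 °C) was −0.74 to 0.48, with a median of −0.13, and their median standard error was 0.072. Both arrays at 4 °C lay above both at 23 °C for 11878 probes, 39.8% of those with values on all 4 arrays. They lay below both for 15382 (51.5%), beside the 34.2% and 45.2% called. With 2 arrays per group, such separation can also arise without a difference in level. Higher probes made up 43.3% of the 2-fold calls, but only 32.4% (2105 higher, 4395 lower) after normexp background correction. After quantile normalization there were 4205 higher and 4161 lower, and after scaling to the median 4509 and 4308. Which direction was more frequent among the 2-fold calls thus depends on the scaling. Under these 4 settings together 2023 probes passed as at least 2-fold higher and 3803 as lower. At any fold, lower calls were more numerous in each of the 4. Higher and lower counts were 7926 and 18162 with normexp, 11233 and 12296 after quantile normalization, and 11702 and 11945 with median scaling.

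Falls were more numerous among small changes and rises among large ones. Between 2-fold and 4-fold, 2361 probes were higher at 4 °C and 3732 lower. Between 4-fold and 8-fold, 764 were higher and 905 lower. From 8-fold to 16-fold the order was the other way round, with 364 higher and 266 lower, followed by 172 higher and 116 lower up to 32-fold. At 32-fold or more 262 were higher and 110 lower. Under normexp, quantile and median scaling, too, lower probes were more numerous from 2-fold to 4-fold and higher ones in the 3 classes from 8-fold up. Between 4-fold and 8-fold the order depended on the setting, with 366 higher and 551 lower under normexp, 801 and 724 after quantile normalization, and 844 and 789 with median scaling. Among probes measured well above background on all 4 arrays, the class of 32-fold or more held 106 higher and 51 lower. The 8-fold to 16-fold class held 226 higher and 200 lower. The 10 largest rises measured in this way ran from 337-fold to 1681-fold, with mean levels of 2.88 to 5.99 at 4 °C and −6.90 to −3.96 at 23 °C. The 10 largest falls ran from 109.6-fold to 406-fold, with mean levels of −7.03 to −3.68 at 4 °C and 0.84 to 3.89 at 23 °C. Each of these 20 probes stood above its array's 75th percentile at one temperature and well below it at the other.

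Some transcripts were detected at 1 temperature only. Of 1323 probes detected on both arrays at 4 °C and neither at 23 °C, 974 were called higher at 4 °C. Of 248 with the opposite pattern, 247 were called lower. Each set passed the filter only through the group where it was detected, so the direction of these calls is set in part by that choice. The lowest level counted as well above background was −8.18 and −8.14 in the cold, against −7.24 and −7.16 without it, so a dim transcript passed more easily at 4 °C. With each fold taken as a bound against that lowest level, 463 of the 974 were at least 2-fold higher at 4 °C, 290 at least 4-fold and 116 at least 16-fold. For 166 of the 974 the bound was not above 1, and no fold is given for them. For the 247 probes detected at 23 °C only, the bound was at least 4-fold in 149 and at least 16-fold in 43. A bound near 2-fold is built into that set, because the lowest detectable level at 23 °C is itself about 1 log2 unit above the one at 4 °C.

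Under the main scaling, the share of lower probes depended on the signal level. Members with values on all 4 arrays were divided into quartiles by their mean level over those arrays. In the dimmest quartile 19.1% rose 2-fold or more at 4 °C and 22.7% fell 2-fold or more. In the brightest quartile, above a level of 0.52, these shares were 9.79% and 13.6%. Only 5278 of the 7465 probes of the dimmest quartile were well above background at both temperatures, and the others passed the filter through 1 group. Over quartiles of the probes measured on all 4 arrays, higher probes made up 9.73% of the dimmest and 9.59% of the brightest, and lower probes 23.5% and 13.6%. The median difference was then −0.42 in the dimmest quartile and −0.064 in the brightest.

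Of the 6 probes with a gene name, Wcor15 and RD29B were members. Wcor15 encodes a cold-responsive wheat protein of the COR/LEA kind that is targeted to the chloroplast. Its level was −0.057 and −0.062 in the necrotic leaf at 4 °C, against −4.88 and −4.91 at 23 °C. Both cold arrays lay far above both arrays without cold, and replicates nearly coincided. The difference was 4.83 (SE 0.062, limma, adjusted p = 9e-09), or 28.5-fold, and with normexp 3.48, or 11.2-fold. In the wild-type leaf at 4 °C Wcor15 stood at −0.78 and −0.71, closer to the necrotic leaf at 4 °C than to that at 23 °C. The shoots at 4 °C, a different tissue after 6 weeks of cold, stood below the necrotic leaf at 23 °C. Wcor15 was at −5.98 and −6.05 in the wild-type shoot. It was at −10.37 and −10.52, not well above background, in the necrotic shoot.

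RD29B of Arabidopsis responds to drought and abscisic acid; the species of the sequence behind this probe is not named in the files. RD29B was dim, at −6.89 and −6.67 in the necrotic leaf at 4 °C against −6.21 and −6.43 at 23 °C. The groups did not overlap, but the gap between them was about as wide as that between replicates. After scaling, RD29B was lower at 4 °C by 0.45 on the log2 scale (SE 0.093, limma, adjusted p = 0.00355). Relative to the median member its difference was −0.32, and −0.49 to −0.21 over the 4 scaling and background settings. The percentile used for scaling was 1613 and 1539 at 4 °C against 789 and 808 at 23 °C. A signal near background that stayed the same would therefore also be lower at 4 °C after scaling. Whether the transcript of RD29B itself fell was not tested apart from this shift. The probes named cor47, RD29A, DREB2A and DREB2B were dim throughout, with none of the 10 arrays well above background. Arabidopsis cor47 and RD29A respond to cold, and the DREB2 factors act in the response to dehydration. The signals of these 4 probes in the necrotic leaf, −10.38 to −8.74, were lower on both arrays at 4 °C than on both at 23 °C, but as none was above background they give no comparison of transcript levels.

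The other probes carry names of expressed-sequence contigs or clones, which the files do not pair with genes. Contigs or clones with 2 probes show whether probes that share a name moved together. There were 57 contigs or clones with 2 such probes measured on all 4 arrays. In 32 of them both probes were called lower and in 4 both were called higher, at any fold. Among all tested members, probe by probe, 45.2% were lower and 34.2% higher, which is not a background for pairs. The differences had the same sign in 43 pairs. Their medians were −0.73 for the first and −0.86 for the second probe, against −0.13 for all members. Both probes were at least 2-fold lower for 6, both at least 2-fold higher for 0, and 1 probe higher and the other lower for 2. The 57 pairs of differences correlated weakly, at r = 0.065, and the median gap between the probes of a pair was 0.76 on the log2 scale. The suffix that tells these probes apart is not explained in the sources used here. Whether both probes of a pair match 1 transcript was not checked.

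The contigs whose less changed probe fell furthest were whsh_allContig1241 and whfl_allContig1397. The probe whsh_allContig1241 stood at 5.95 and 5.97 in the necrotic leaf at 4 °C against 7.46 on 1 array at 23 °C, where the other array's spot was an outlier and left out. The difference was −1.50 (SE 0.14, limma, adjusted p = 0.000142). Its partner whsh_allContig1241_2 stood at 3.13 and 3.09 at 4 °C against 4.52 and 4.63 at 23 °C, and fell by 1.47 (SE 0.094, limma, adjusted p = 9.71e-06). The falls were 2.84-fold for the first probe, with 1 array at 23 °C, and 2.76-fold for its partner. After quantile normalization the first probe's difference was −0.81 and its partner's −1.29.

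The probe whfl_allContig1397 stood at 4.87 and 4.78 at 4 °C against 6.14 and 6.18 at 23 °C, a fall of 2.52-fold (limma, adjusted p = 1.57e-06). Its partner whfl_allContig1397_2 stood at −6.95 and −7.14 at 4 °C against −5.36 and −5.27 at 23 °C, a fall of 3.32-fold (limma, adjusted p = 3.13e-06). Neither probe's groups overlapped. In the wild-type leaf at 4 °C whsh_allContig1241 stood at 5.70 and 6.03 and whfl_allContig1397 at 5.09 and 5.07, all below the necrotic leaf at 23 °C.

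The contigs whose less changed probe rose furthest were wheat0130Contig12968 and whfl_allContig879. The probe wheat0130Contig12968 stood at 0.67 and 0.63 in the necrotic leaf at 4 °C against −0.83 and −0.78 at 23 °C, a difference of 1.45 (SE 0.041, limma, adjusted p = 2.14e-07). Its partner wheat0130Contig12968_2 stood at −4.41 and −4.17 at 4 °C against −4.67 and −4.72 at 23 °C. That difference was 0.40 (SE 0.094, limma, adjusted p = 0.00665), and with normexp it was −0.38. The brighter probe of this contig rose 2.74-fold. The direction of the dimmer one depended on the background correction: it reversed with normexp and held in 13 of 14 alternative settings.

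The probe whfl_allContig879 stood at −3.48 and −3.49 at 4 °C against −6.17 and −6.64 at 23 °C, a 7.56-fold rise (limma, adjusted p = 4.91e-06). With normexp this rise was 1.62-fold. Its partner whfl_allContig879_2 stood at −5.26 and −5.44 at 4 °C against −5.54 and −5.88 at 23 °C, a difference of 0.37 (SE 0.12, limma, adjusted p = 0.0261). That call was lost without replicate 1 at 4 °C (0.28, adjusted p = 0.131), without replicate 2 at 23 °C (0.20, adjusted p = 0.114) or with only the 4 arrays compared in the fit (adjusted p = 0.104). With normexp it was −0.57. In the wild-type leaf at 4 °C whfl_allContig879 stood at −4.91 and −5.15, between the necrotic groups, and whfl_allContig879_2 at −6.07 and −6.16, below both of them.

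Clones gave a larger set of probe pairs. In 1345 clones 1 probe carries the clone's name (starting with wh) and another the same name with a leading r (rwh), both measured on all 4 arrays. What the letter marks is not given in the sources used here. The paired probes had differences of the same sign in 1042 clones (77.5%), and they lay within 1 log2 unit of each other in 1188. Both were at least 2-fold higher at 4 °C in 50 clones and both at least 2-fold lower in 118. One was higher and the other lower by that measure in 4. In 292 clones only 1 of the pair passed, and in 881 neither did. Across these clones, whose probes share arrays and scaling, the differences correlated at r = 0.702.

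The paired probes also differed in a systematic way. The wh probe had the lower value of the temperature difference in 894 of the 1345 clones (66.5%), by a median of −0.19 relative to its rwh partner. With normexp the median was −0.30, after quantile normalization −0.13 and with median scaling −0.19. The same gap within clones was 0.023 for necrotic minus wild-type leaf at 4 °C and −0.048 for necrotic minus wild-type shoot. The arrays of each of these contrasts share slide, temperature and weeks of cold, which all differ in the temperature comparison. It was −0.21 for wild-type leaf at 4 °C minus necrotic leaf at 23 °C, a contrast that uses the same arrays at 23 °C. In 29 of the 33 clone collections with at least 20 tested probes of each kind, the median difference of the wh probes was below that of the rwh probes. These gaps are small beside the 2-fold threshold, and their part in the counts of lower probes was not tested.

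Counts by the form of the probe name were read against the 13.1% higher and 17.1% lower among all tested members. Of 11734 probes named wheat0130Contig, 1699 were at least 2-fold higher at 4 °C (14.5%) and 1765 lower (15.0%), with a median difference of −0.042. Of 3671 probes of clones starting rwh, 519 were higher (14.1%) and 586 lower (15.96%). Of 5552 probes of clones starting wh, 476 were higher (8.57%) and 1097 lower (19.8%), with a median of −0.34. Of 1164 probes named for MUG clones, 75 were higher (6.44%) and 342 lower (29.4%), with a median of −0.42. With normexp the higher counts were 1031 for wheat0130Contig, 246 for rwh, 142 for wh and 49 for MUG, and the lower counts 1579, 499, 875 and 307. Relative to the median of all members, that of the wh clones was −0.29 to −0.16 and that of the MUG clones −0.29 to −0.11 over the 4 scaling and background settings.

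A small group of probes was taken to be named for single database sequences. The 41 probes left after all other name forms were taken as sequence accessions, without a check against an accession pattern. Of these 41 probes 20 were tested. Of these 9 were at least 2-fold higher at 4 °C and 2 lower, beside 13.1% and 17.1% of all members. Their median difference was 0.85, against −0.13 for all members. With normexp 7 were higher and 1 lower, and after quantile or median scaling 10 and 1. Of the 9 rises, 3 were of probes not well above background on all 4 arrays. The 6 rises measured on all 4 arrays ran from 2.51-fold to 57.1-fold, and 4 of them were at least 8-fold. The largest was that of a probe at a mean level of 0.70 in the necrotic leaf at 4 °C against −5.14 at 23 °C, and the next stood at 2.47 against −3.02. Both falls were small, 2.25-fold and 2.09-fold. Of 128 tested probes with an ncbi_gi name, 28 were higher (21.9%) and 31 lower (24.2%), of which 17 and 28 were measured on all 4 arrays. With normexp 13 were higher and 25 lower. The files pair none of these names with a gene.

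Values in the other cold groups were set beside these. Over the 3923 probes at least 2-fold higher, the median difference from the necrotic leaf at 23 °C was 1.70 for the necrotic leaf at 4 °C (interquartile range 1.28 to 2.69), beside 1.38 in wild-type leaf of the same temperature (0.80 to 2.20). Over the 5129 lower probes it was −1.48 (−2.08 to −1.20) for the necrotic and −1.39 (−2.06 to −0.95) for the wild-type leaf. Both differences use the same 2 arrays at 23 °C, and the probes were chosen on the first of them, so a value nearer to 0 in the wild-type leaf is fixed in part by that choice. The line difference at 4 °C, necrotic minus wild-type leaf, had a median of 0.32 over the higher and −0.18 over the lower probes, against −0.037 over all tested members. It uses the necrotic arrays at 4 °C on which the probes were chosen, so its sign over these sets is also fixed in part by that choice. In the necrotic shoot, a different tissue after 6 weeks of cold, the medians against the leaf at 23 °C were 1.58 (0.33 to 3.23) and −0.71 (−1.80 to 0.42). These medians, too, use the arrays at 23 °C on which the probes were chosen.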

How the data were processed

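RNA of 10 samples was labelled with Cy3 and hybridised, 1 array per sample, per the labels' protocols. The scanner files deposited by the authors give the intensity of each spot on a linear scale; per the file headers, Agilent Feature Extraction subtracted the background, detrended each array and put surrogates in place of dim spots, without scaling between arrays. The headers name version 10.5.1.1, the submitters' processing notes 9.5. The deposited series matrix repeats these intensity values exactly.

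Control spots were dropped. Processed signals were put on a log2 scale, and from each the 75th percentile of its array, taken over all 37826 non-control spots, was subtracted to give a level. After scaling, spots that the software marked as outliers became missing values (12 to 143 on an array). With limma 3.58.1 (R 4.3.3), lmFit and eBayes gave 1 mean per group over the 10 arrays for 33096 probes, those detected on both arrays of any of the 5 groups, with 5 residual and 1.56 prior degrees of freedom. Tests were two-sided with Benjamini-Hochberg adjustment over these probes and a threshold of 0.05. The steps were tested on simulated data.

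Where a probe was not well above background on either array of a group, its level there is a bound: each array's value was raised, if lower, to the lowest signal counted as well above background on that array, and the other group's mean over the result is a fold of "at least".

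By rule, the text names the probes with a gene name and, in each direction, the 2 contigs with 2 measured probes whose less changed probe moved furthest. Members, lists, rules and tests were chosen with earlier results of these data known. Of 10 gene lists, cold-responsive proteins matched 6 probes (2 tested), and the other 9 matched 0. None of the 37826 names occurs among the RefSeq genes of the assembly IWGSC CS RefSeq v2.1. The alternatives were normexp with an offset of 50 (on the median spot signal, because the planned mean signal is not a column of these files), quantile or median scaling, a stricter or no filter on dim probes, a fit over the members or over the 4 arrays only, an intensity trend, the series matrix, a replicate block and the loss of each array. The name forms, clone pairs and size classes under other scalings, the probes called under 4 settings together, and the level quartiles of probes measured on all 4 arrays were added after seeing the data. The number of arrays limits the precision.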

Additional observations from a re-analysis of the deposited data

How the results depend on the processing

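The 4 counts of higher and lower probes, at 2-fold and at any fold, stayed within 1.5 times the value given under the 14 alternatives, except that normexp gave 2105 higher at 2-fold in place of 3923. Leaving out 1 array gave 3836 to 3905 higher and 4944 to 5206 lower at 2-fold, and 9536 to 9684 higher and 12511 to 12778 lower at any fold. Higher probes made up 34.5% of the 2-fold calls with no filter on dim probes, 38.2% with detection required on all 4 arrays, 50.3% after quantile normalization and 51.1% after median scaling, where the median member moved to −0.013 (−0.38 with normexp). For named probes, 134 of 139 alternative values kept their direction and call. The difference reversed with normexp for wheat0130Contig12968_2 (−0.38) and whfl_allContig879_2 (−0.57). The call of whfl_allContig879_2 was lost in the 3 settings given above. The causes were not tested. Normexp adds its offset of 50 before scaling, and the part of the offset in the lower counts and the reversals was not tested either. Wcor15 ran from 11.2-fold to 30.9-fold. Deviations of same-numbered replicates from their group means correlated at −0.0061 between the groups compared and at −0.0061 to 0.062 over the 10 pairs of groups. Such low values cannot show whether same-numbered samples share an experiment, because spread between arrays could mask it. With the replicate block 3919 probes were at least 2-fold higher and 5125 lower, and 10260 and 13564 at any fold. Signal near background limits what dim probes can show.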

Other observations

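On the array 833 contigs or clones carry a probe with _p_, a probe with _m_ or both in an otherwise shared name. How many carry both was not counted, and the sources used here do not explain the letters. The _p_ probe was a member in 478 and the _m_ probe in 321. Both were members in 172, only 1 in 455 and neither in 206. In the 123 contigs with both probes measured on all 4 arrays, the temperature differences had the same sign in 90 and correlated at r = 0.252 across contigs, which are not independent. Both probes were at least 2-fold lower at 4 °C in 16 and both at least 2-fold higher in 1, and 4 had 1 probe higher and the other lower. The agreement was thus lower than the r = 0.702 of the clone pairs with and without a leading r; the difference between these values was not tested.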
